A study of Mus musculus with 5 samples.

Results

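Oligodendrocytes in the dentate gyrus were examined in single cells dissociated from mice trained in contextual fear conditioning and from mice given random foot shocks. A barcode, which stands for 1 droplet and in most cases 1 cell, was taken as an oligodendrocyte when it held at least 500 unique molecular identifiers (UMIs, each standing for 1 captured RNA molecule) and at least 300 genes, had at least 4 of the 8 genes Mog, Mag, Mobp, Ermn, Cldn11, Aspa, Opalin and St18 detected, and carried at most 1 UMI in total of Tmem119 (microglia), Cldn5 (endothelium), Folr1 and Kcnj13 (choroid plexus) and Aqp4 (astrocytes). This rule found 1115 oligodendrocytes among 63342 deposited barcodes of dissociated cells, out of 95918 barcodes in all 5 libraries of the series. The cells were thus chosen by measured counts of these genes, so the levels of the 8 genes are given as a description and support nothing.

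All animals of the libraries of dissociated cells were wild-type mice. The dentate gyri of 10 mice 14 days after fear conditioning training made up the library called CFC-14d, and those of 10 mice 14 days after random foot shocks made up the library called Random-14d. Tissue was digested with collagenase and DNase, red blood cells were lysed, and RNA was counted with a droplet 3' kit. Libraries of nuclei are set beside these near the end. They came from untrained wild-type mice, conditioned wild-type mice and conditioned mice labelled as a knockout (KO-CFC). The labels give no strain, sex or age. Each group was 1 library, so no difference between the groups had a replicate and none was tested. Every interval given is a 95% interval that covers counting error only, not differences between mice or preparations.

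Oligodendrocytes are the myelin-forming glia of the central nervous system. They wrap axons in a membrane rich in cholesterol and galactolipids that is held compact by proteins such as Mbp, and they supply axons with metabolites through the sheath. They arise from precursor cells that divide through adult life, and mature cells differ among themselves in genes such as Klk6, S100b, Ptgds, Il33 and Opalin.

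CFC-14d held 32827 barcodes and 126937815 UMIs, and Random-14d 30515 barcodes and 122920565 UMIs, with medians of 1997 and 2077 UMIs per barcode. The libraries had 282 barcode sequences in common, of which 0 belonged to oligodendrocytes in both. Ttr, which choroid plexus epithelium makes in bulk, stood at 214921 counts per 1000000 UMIs (CPM) over the other barcodes of CFC-14d and at 208340 over those of Random-14d.

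Oligodendrocytes numbered 520 in CFC-14d, 1.58% of the barcodes (interval 1.45 to 1.73, exact Clopper-Pearson as for every share given). In Random-14d they numbered 595, or 1.95% (1.80 to 2.11). The share by this rule was thus lower in CFC-14d, with a log2 ratio of -0.30 (-0.47 to -0.13). It leaves out barcodes that had enough of the 8 genes but held 2 or more UMIs of the exclusion genes. These numbered 281 in CFC-14d and 191 in Random-14d, and the ratio with them let in was not computed. Microglia gated by their own markers also took a smaller share of barcodes in CFC-14d, 33.8% against 41.5%, as did endothelial cells, 3.72% against 5.49%. The part of the makeup of the 2 suspensions in the lower oligodendrocyte share was not tested. When barcodes with only 3 of the 8 genes were let in, there were 615 and 623 cells and the log2 ratio was -0.12.

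The cells were deep for their libraries. The median oligodendrocyte of CFC-14d held 3543 UMIs and that of Random-14d 3281, with ranges of 514 to 13512 and 501 to 11804, and a median of 1793 and 1682 genes. Mitochondrial transcripts took a median of 2.15% and 1.98% of UMIs. Most cells sat far inside the rule: 7 or 8 of the 8 genes were detected in 437 cells of CFC-14d (84.0%, 80.6 to 87.1) and in 535 of Random-14d (89.9%, 87.2 to 92.2). The 8 genes gave a median of 44 and 39 UMIs per cell.

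The edge of the rule was not the same in both libraries. Cells with only 4 or 5 of the genes numbered 58 in CFC-14d, or 11.2% (8.58 to 14.2) of its oligodendrocytes, and 25 in Random-14d, or 4.20% (2.74 to 6.14). Cells with exactly 4 genes had medians of 1136.5 and 704 UMIs and 5.08% and 7.0% mitochondrial UMIs, and microglia markers took 1.47% and 1.26% of their UMIs. In cells with all 8 genes those medians were 3777 and 3426 UMIs and 2.00% and 1.94%, with microglia markers at 0.229% and 0.291%. The cells at the edge were thus shallow and rich in microglial and mitochondrial RNA, and CFC-14d had more of them. Just outside the edge, 95 barcodes of CFC-14d and 28 of Random-14d had 3 genes. Microglia markers took 1.48% and 1.71% of the UMIs of these barcodes.

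**Figure D1:**
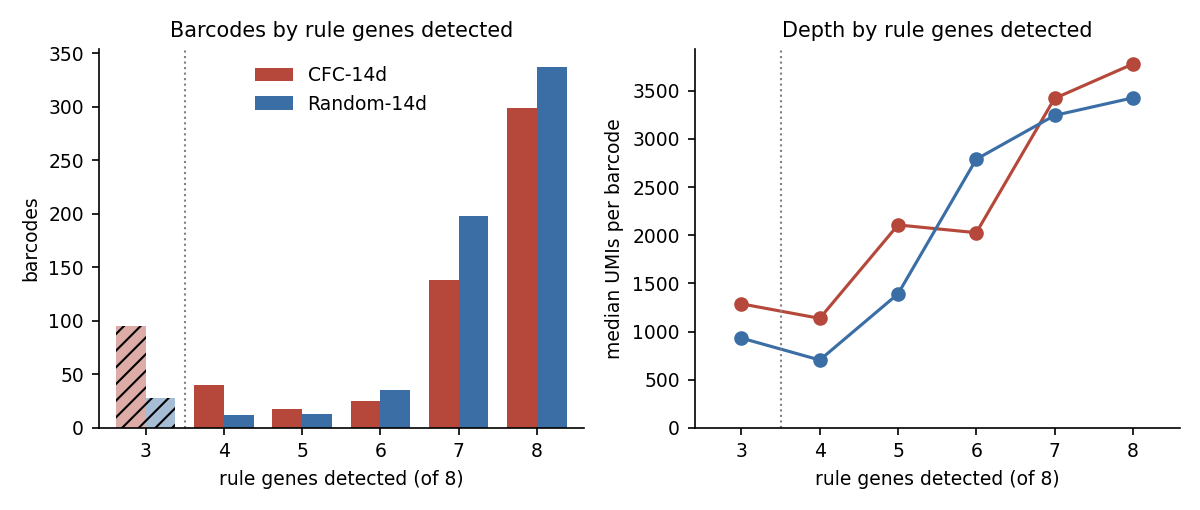
Barcodes of CFC-14d (red) and Random-14d (blue) by how many of the 8 rule genes were detected, as numbers of barcodes on the left and median UMIs per barcode on the right, with hatched bars left of the dotted line for the 95 and 28 barcodes just outside the rule. CFC-14d had 40 barcodes at 4 genes against 12, and 299 at 8 genes against 337.

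The limit on foreign transcripts also cut through the data. Of the oligodendrocytes, 349 in CFC-14d and 417 in Random-14d had no UMI of the 5 exclusion genes, and 171 and 178 had 1. A further 281 and 191 barcodes met the count of oligodendrocyte genes but held 2 or more UMIs of the exclusion genes, with medians of 4491 and 5007 UMIs. Folr1 was present in 187 and 100 of these, Tmem119 in 155 and 114, and Aqp4 in 15 and 12. They were not analysed further, and no doublet caller was run.

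The identity of the cells held for genes the rule did not use. Mbp, which compacts the cytoplasmic faces of the myelin membrane, was at 4291 CPM in CFC-14d and 4227 in Random-14d, 38.9-fold and 47.0-fold its level in all other barcodes. Mal, a proteolipid of myelin, was at 7258 and 7327 CPM, 91.2-fold and 106-fold. Of the 1792 genes at 100 CPM or more in the oligodendrocytes of CFC-14d, rule genes left out, 286 (16%) were at least 10-fold above the other barcodes, and 279 were so in both libraries. Among those of largest ratio were Sec14l5 (142 and 107 CPM), Kcna1, a potassium channel subunit (267 and 258), Ugt8a, which makes the myelin lipid galactosylceramide (899 and 859), Fa2h, which hydroxylates its fatty acid (405 and 389), Hapln2, which links matrix at the node of Ranvier (282 and 282), Cntn2, an adhesion protein of the juxtaparanode (546 and 523), and Edil3 (946 and 904). Their ratios lay between 110-fold and 129-fold in CFC-14d and between 129-fold and 156-fold in Random-14d.

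The most abundant protein-coding transcript was Fth1, the heavy chain of ferritin, at 27134 and 29773 CPM. Iron storage is a known feature of oligodendrocytes, and Trf, which carries iron, was at 3701 and 3255 CPM. Apod, a lipid carrier, was at 3769 and 4258 CPM, Car2, a carbonic anhydrase, at 4608 and 5247, and Cryab, a small heat shock protein, at 8474 and 9240. Each of the 5 was also above the other barcodes, from 5.54-fold for Fth1 to 30.3-fold for Apod in CFC-14d.

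Pdgfra, Gpr17 and Neu4, which mark cells before maturity, were nearly absent. The rule asked for genes of myelinating cells and so favoured mature ones, and this describes the cells chosen. Pdgfra, the growth factor receptor of precursors, gave 3 and 2 counts in all oligodendrocytes together, Gpr17, a receptor of cells committed to the lineage, 2 and 3, and Neu4 0 and 0. Enpp6, a marker of newly formed oligodendrocytes that mature cells can keep, had 275 and 297 counts and was detected in 140 (26.9%) and 156 (26.2%) of the cells. Bmp4 gave 6 and 4 counts. Of the list of precursor genes, only Matn4 and Olig1 reached 100 counts over both libraries, Matn4, a matrix protein, with 76 and 67 counts and Olig1, which the whole lineage carries, with 1410 and 1154.

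Transcripts of other cell types were present at low levels. In CFC-14d choroid plexus markers took 2.32% of oligodendrocyte UMIs, and 2.01% in Random-14d, against 22.3% and 21.5% in the other barcodes, and every oligodendrocyte had 10 or more such UMIs. Microglia markers took 0.310% and 0.277% (other barcodes 1.20% and 1.27%), with 134 and 98 cells at 10 or more UMIs. Astrocyte markers took 0.0564% and 0.0565%, mural and fibroblast markers 0.0262% and 0.0213%, neuron markers 0.0229% and 0.0254%, and endothelial markers 0.00701% and 0.00785%. Of the neuron markers, only Prox1 and Tubb3 reached 100 counts. Prox1, which granule neurons use and which is also known in oligodendrocytes, was at 139 and 147 CPM in the oligodendrocytes against 9.01 and 7.19 in the other barcodes. In CFC-14d every marker of these lists had at least 1 count except 1 neuronal gene, Syt1, and in Random-14d 2 mural and fibroblast genes were at 0.

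Haemoglobin differed between the libraries in most cells. It took 2.31% and 3.03% of oligodendrocyte UMIs, CFC-14d first, and 5.38% and 10.9% in the other barcodes. The median oligodendrocyte held 0.312% and 0.641%, and single cells reached 67.0% and 61.4%. All 4 haemoglobin genes were lower in CFC-14d, from -0.30 (Hba-a1) to -0.47 (Hbb-bt) on the log2 scale, and without the 10% of oligodendrocytes with most UMIs their median was 0.21 instead of -0.41.

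Oligodendrocytes with and without Klk6 differed in S100b, Ptgds and Il33 in the same direction in both libraries. Klk6, a secreted serine protease that marks 1 of the mature states, was detected in 18 cells of CFC-14d (3.46%, 2.06 to 5.42) and in 24 of Random-14d (4.03%, 2.6 to 5.94). It was detected in 9 of 11101 microglia of CFC-14d (0.0811%) and in 0 of 12652 of Random-14d (upper bound 0.0292%), whose median depths were 2180 and 2042 UMIs. These cells with a Klk6 UMI, called Klk6-positive here, were deeper than the rest, with medians of 5143 and 4238.5 UMIs against 3504 and 3259, and after thinning every cell to 1000 UMIs Klk6 was detected in 0.604% (0.125 to 1.75) and 2.05% (1.06 to 3.56). Within each library, the summed UMIs of the Klk6-positive cells were compared with those of the other oligodendrocytes as log2 ratios of CPM. The cells of 1 library share that library, so these values describe cells and not mice.

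S100b, a calcium-binding protein, was at 924 CPM in the Klk6-positive cells of CFC-14d and at 104 CPM in the other oligodendrocytes, and at 918 against 92.2 CPM in Random-14d. The log2 ratios were 3.16 (2.78 to 3.52) and 3.32 (2.96 to 3.67). It was detected in 17 of 18 Klk6-positive cells against 77 of 502 others in CFC-14d, and in 19 of 24 against 86 of 571 in Random-14d. S100b was thus carried by most Klk6-positive cells and by few of the others. Pmp22, a membrane protein best known from peripheral myelin, followed the same pattern at 593 against 154 CPM and 656 against 170 CPM. Apod was at 7918 against 3533 CPM and 9350 against 3964 CPM. Hopx, a homeodomain protein, had log2 ratios of 1.45 (0.39 to 2.28) and 2.56 (1.86 to 3.19), and Anxa5, a phospholipid-binding annexin, 1.74 (0.80 to 2.51) and 1.35 (0.38 to 2.12).

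The opposite pattern was seen for Ptgds and Il33. Ptgds, which makes prostaglandin D, was at 856 CPM in Klk6-positive cells and at 12275 in the others in CFC-14d, and at 1697 against 13950 in Random-14d. Il33, a nuclear alarmin cytokine of oligodendrocytes, was at 126 against 702 CPM and 184 against 754 CPM. It was detected in 5 of 18 Klk6-positive cells against 356 of 502 others, and in 8 of 24 against 456 of 571. Opalin, a rule gene, was at 331 against 1734 CPM and 490 against 1712 CPM. Ptgds and Il33 were thus lower in Klk6-positive cells in both libraries, and Opalin is given as a description since its detection helped choose the cells. Qdpr, which regenerates tetrahydrobiopterin, was also lower, with log2 ratios of -0.86 and -0.85.

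Core myelin genes separated the Klk6-positive cells far less. The log2 ratio of Mbp was 0.15 in CFC-14d and 0.07 in Random-14d, and that of Mag, the adhesion protein next to the axon, 0.29 and 0.38. Grm3, a glutamate receptor gene listed with another mature state, was at 0.08 (-0.51 to 0.57) and -0.10 (-0.69 to 0.40). Among 7131 genes with at least 30 counts in CFC-14d, 18.4% were 2-fold or more apart either way, between summed UMIs of 102798 in the Klk6-positive cells and 1810119 in the others. Of the 10 highest ratios, S100b, Efr3b and Robo1 had log2 ratios above 1.5 in both libraries, Efr3b and Robo1 from at most 9 counts in the Klk6-positive cells. Plac8, Gtf3c5 and Lrrcc1 were high in CFC-14d but had 0, 0 and 1 counts in the Klk6-positive cells of Random-14d.

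**Figure D2:**
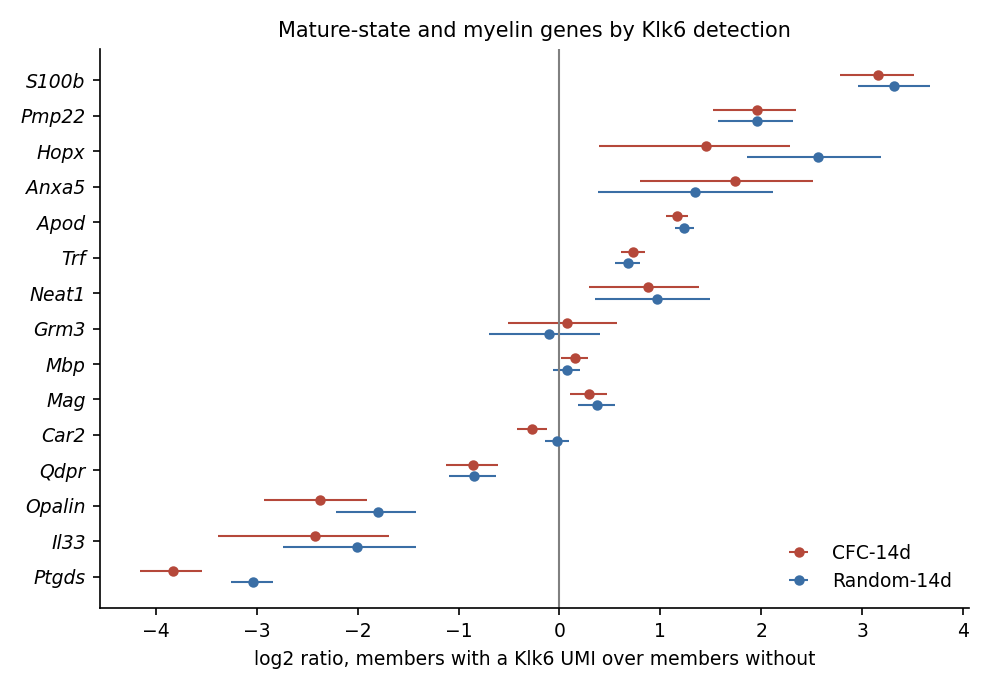
Log2 ratio of CPM in Klk6-positive oligodendrocytes over all other oligodendrocytes of the same library, for CFC-14d (18 against 502 cells) and Random-14d (24 against 571 cells), with 95% counting intervals as bars. S100b lies above 3 in both libraries, and Ptgds, Il33 and Opalin lie below -1.5 in both.

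Il33, Apod and Ptgds were detected in most cells, whereas Hopx, Anxa5 and S100b were detected in few. Il33 was detected in 361 (69.4%, 65.3 to 73.4) of the oligodendrocytes of CFC-14d and in 464 (78.0%, 74.4 to 81.3) of those of Random-14d. After each cell was thinned to 1000 UMIs, which left out 23 and 10 shallower cells, the shares were 46.3% and 49.9%, and those of microglia 0.902% and 0.697%. Its CPM were 671 and 723. Apod was detected in 500 and 588 cells and Ptgds in 492 and 573. Ptgds was also found in 38.5% and 29.8% of thinned microglia and in 35.0% and 35.5% of thinned astrocytes. Grm3 was detected in 315 and 345 cells (60.6% and 58.0%), or in 23.1% and 27.4% after thinning. Thinned microglia had Grm3 in 1.30% and 1.63%, but thinned astrocytes in 33.5% and 33.6%, above the shares in oligodendrocytes.

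The comparison of CFC-14d with Random-14d asks whether oligodendrocytes differ after conditioning beyond what shocks without that training leave. Counts were summed over the oligodendrocytes of each library, which gave 1912917 UMIs for CFC-14d and 2089314 for Random-14d, and 5562 genes had at least 100 counts over both. A gene was called when the libraries were at least 1.5-fold apart. On that rule 72 genes (1.29%) were called higher in CFC-14d and 46 (0.827%) lower. The counting interval lay above 0 for 419 genes (7.53%) and below 0 for 307 (5.52%). The median over all genes tested was 0.02, and 53.2% were higher by any amount. With a 1.5-fold rule, other groups of cells had larger called shares either way, 3.22% in the other barcodes, 3.8% in gated astrocytes, 4.43% in microglia and 3.25% in endothelial cells, against 2.12% in oligodendrocytes. Those groups differ in depth and in the genes tested, so the shares stand side by side and no order is read from them.

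**Figure D3:**
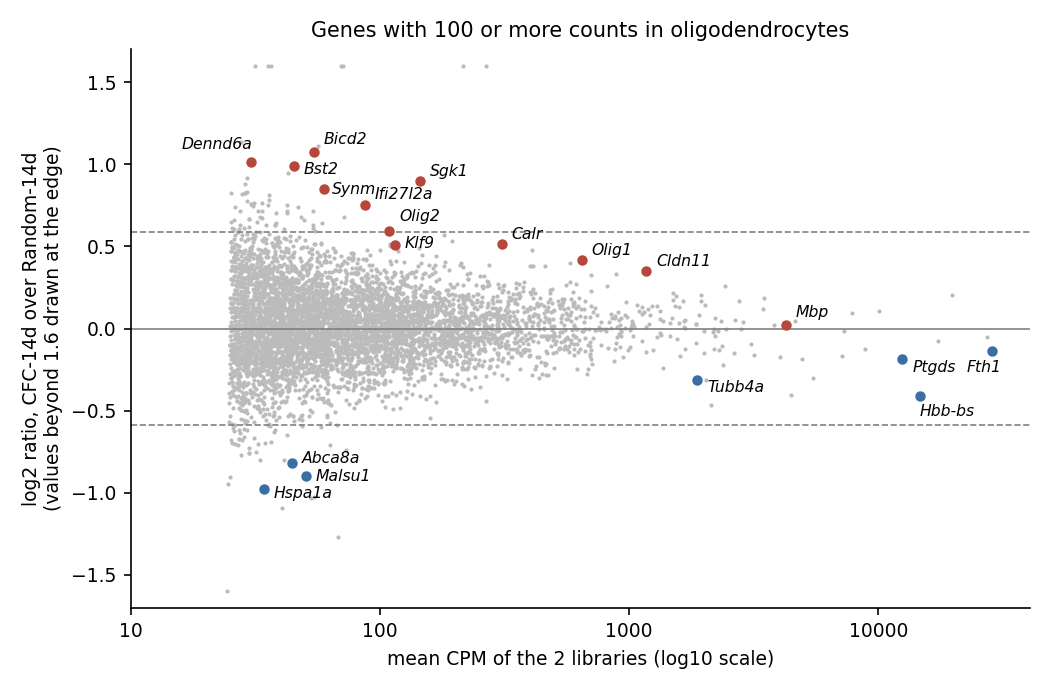
Each point is 1 of 5562 genes in oligodendrocytes, with the mean CPM of both libraries on a log10 axis and the log2 ratio of CFC-14d over Random-14d, drawn at the edge where it lies beyond 1.6. Sgk1 at 0.90 and Olig2 at 0.59 lie above the dashed 1.5-fold line, while Mbp and Fth1 lie near 0 at the right.

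Several called genes came from single cells. In CFC-14d 1 barcode held 1967 of the 2196 UMIs of the neutrophil and lymphocyte markers, among them 259 of the 261 counts of Camp, 262 of 264 of Ngp, 674 of 741 of S100a8 and 772 of 871 of S100a9. Lcn2, also a neutrophil gene, had 132 of its 140 counts in 1 cell and 0 in Random-14d. These 5 genes had the largest ratios. Without the cell richest in such markers in each library, 68 genes were called higher and 48 lower. Among the lower genes, H2-Ab1 had 97 of its 201 counts in Random-14d in 1 cell, H2-Aa 65 of 152, Ccl4 64 of 148 and Frmd4a 88 of 190. The first 2 encode class II MHC chains, and Ccl4 a chemokine. These 4 genes were chosen for mention after their values were seen.

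Of the called genes not carried by 1 cell, Sgk1 had the most counts. It encodes a serum- and glucocorticoid-regulated kinase known to respond to stress hormones in oligodendrocytes. Sgk1 had 360 counts in CFC-14d and 211 in Random-14d, or 188 CPM (169 to 209) against 101 CPM (87.8 to 116). The log2 ratio was 0.90 (0.65 to 1.15). The difference was spread over cells: 207, 88, 37 and 7 oligodendrocytes of CFC-14d had at least 1, 2, 3 and 5 UMIs, against 147, 40, 19 and 1 in Random-14d, and no cell held more than 9. It was detected in 39.8% (35.6 to 44.2) of the cells against 24.7% (21.3 to 28.4), and in 17.5% (14.3 to 21.1) against 8.55% (6.41 to 11.1) after thinning to 1000 UMIs.

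Sgk1 was expressed by other cells too. In microglia it stood at 418 and 367 CPM and was detected in 45.4% and 44.0% of cells, above the shares in oligodendrocytes. Astrocytes had lower thinned shares, 7.60% (4.71 to 11.5) and 3.77% (1.82 to 6.83), and in Random-14d that interval overlapped with the interval in oligodendrocytes. The log2 ratio of Sgk1 was 0.19 in microglia, 0.38 in endothelial cells (219 and 167 CPM), 0.05 in astrocytes (64.5 and 62.3 CPM) and 0.29 (0.26 to 0.31) over all other barcodes. All of these lay below the ratio in oligodendrocytes, whose interval starts at 0.65, and the widest interval, in the 358 and 367 astrocytes, reached 0.62. The ratio in oligodendrocytes was 1.04 in cells with no UMI of an exclusion gene and 0.99 under a wider list of foreign genes, and it lay between 0.87 and 1.13 under all 13 alternatives. Among 7131 genes, 1.87% were 2-fold or more apart between oligodendrocytes of CFC-14d with a Sgk1 UMI and those without. The log2 ratio of Mbp in cells with over cells without was 0.05 in CFC-14d and 0.01 in Random-14d.

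**Figure D4:**
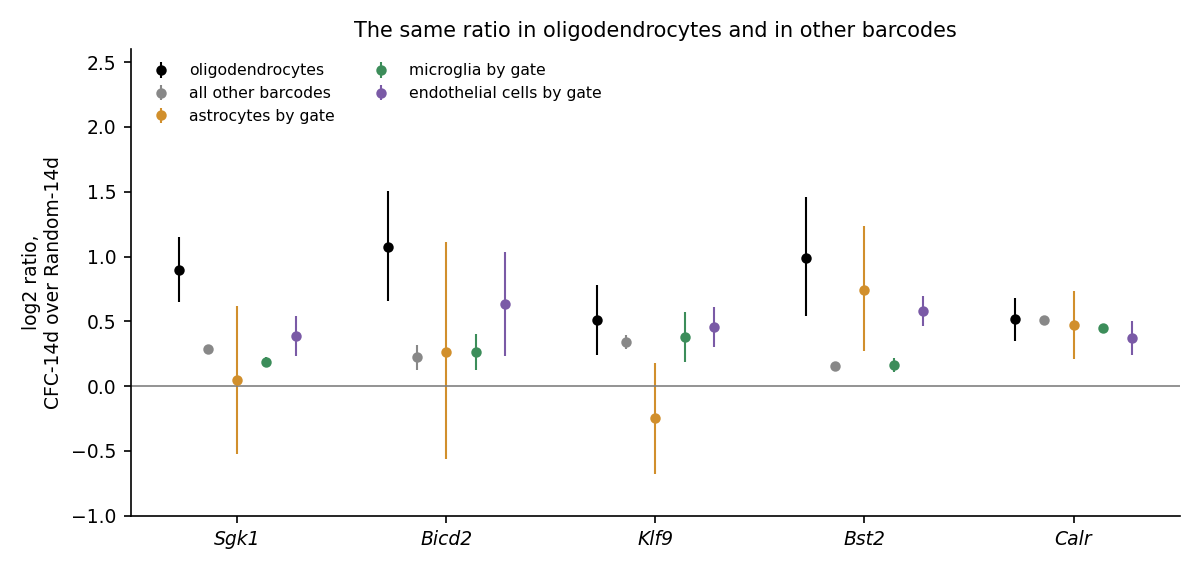
Log2 ratio of CFC-14d over Random-14d for 5 genes in oligodendrocytes (black) and in all other barcodes, gated astrocytes, microglia and endothelial cells of the same libraries, with 95% counting intervals as bars. Sgk1 is at 0.90 in oligodendrocytes and at 0.05 to 0.38 in the other groups, whereas Calr is at 0.52 in oligodendrocytes and at 0.51 over all other barcodes.

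Among transcription factors of the lineage, Olig2 and Olig1 were higher in CFC-14d. Olig2, a helix-loop-helix factor that specifies the lineage, was at 131 CPM (115 to 148) against 86.6 CPM (74.5 to 100.2), a log2 ratio of 0.59 (0.31 to 0.88). It was the only called gene of 13 tested in this list (1.29% of all genes tested were called higher), and after thinning to 1000 UMIs its ratio was 0.03. Olig1, its relative, was at 737 against 552 CPM, a log2 ratio of 0.42 (0.30 to 0.53). In the other barcodes, where both genes were below 10 CPM, the ratios were 0.32 and 0.53. The factors of the mature myelin programme were near 0: Sox10 at 0.01, Myrf, which drives myelin genes, at 0.10, Nkx6-2 at 0.00 and Sox8 at -0.18.

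The myelin proteins as a group were at nearly the same summed level. The 20 genes of the list totalled 47021 CPM in CFC-14d and 46763 in Random-14d, 12 were higher and 8 lower, and 0 were called, with a median log2 ratio of 0.04 against 0.02 for all genes tested. Without the 6 rule genes among them, a subset taken after the data were seen, 14 genes totalled 36022 and 36574 CPM, 7 were higher and 7 lower, and the median was 0.01. Cldn11, the tight junction protein of the sheath and a rule gene, was at 1313 against 1030 CPM, the largest ratio of the list at 0.35 (0.27 to 0.43). Mag was at 0.20, Mog at 0.18, Cnp, a cytoplasmic myelin enzyme, at 0.17 and Nfasc, which anchors the paranode, at 0.19. Mbp was at 0.02, Mobp at -0.02, Mal at -0.01, Opalin at 0.01 and Ermn at 0.05.

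Lipid genes differed by small amounts. Of 14 genes for myelin lipids, 10 were higher and 4 lower, with 0 called and a median of 0.06. Of 15 genes of cholesterol synthesis and its regulation, 13 were higher and 2 lower with a median of 0.20 and 1 called. Hmgcs1, an early enzyme of the pathway, was at 244 against 188 CPM (0.38), Idi1 at 105 against 80.4 (0.39), Cyp51 at 175 against 140 (0.32) and Fdps at 252 against 220 (0.20). Fdft1, which makes squalene, was at -0.23 (-0.61 to 0.15). In the other barcodes the ratios of these 5 genes were all above 0, among them 0.51 for Hmgcs1, 0.56 for Idi1 and 0.60 for Fdft1.

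**Figure D5:**
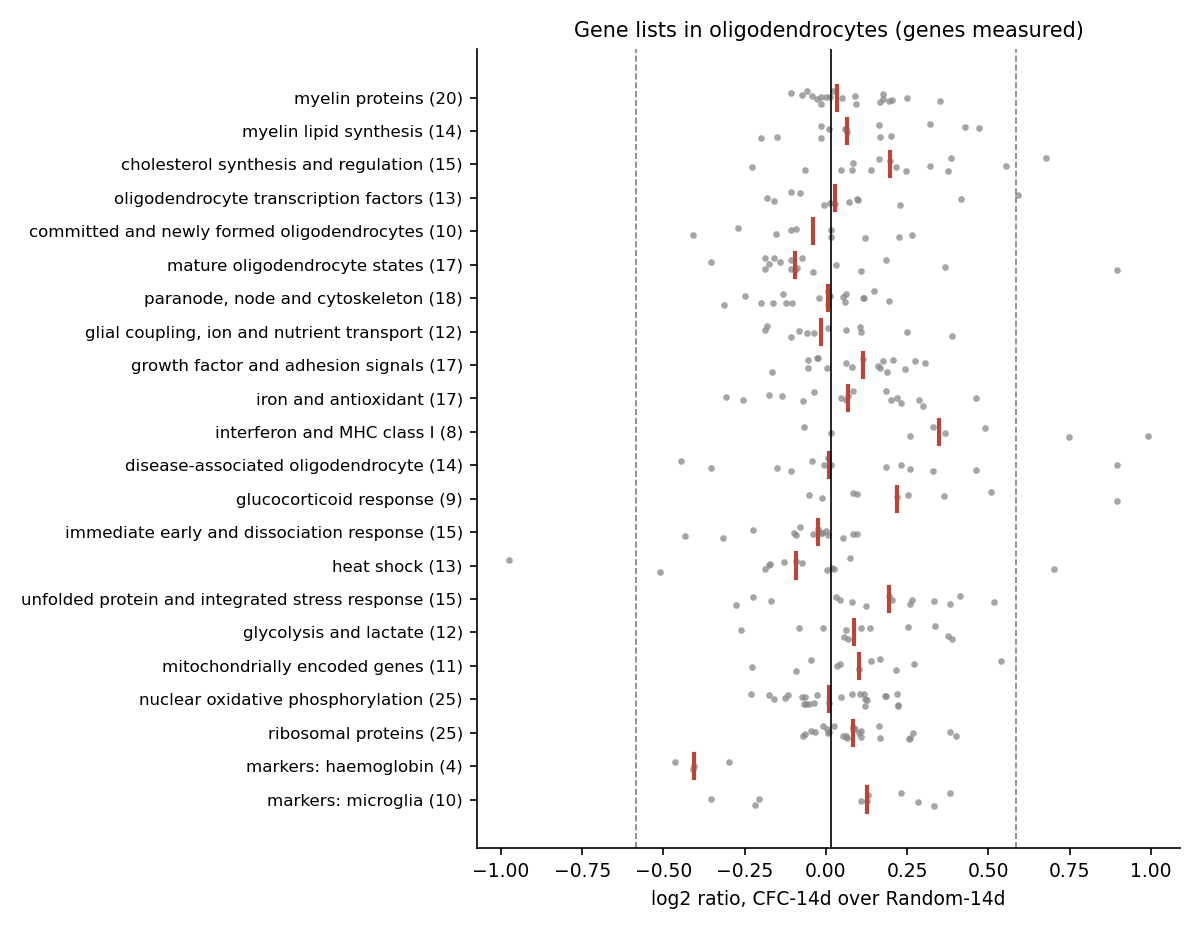
Log2 ratio of CFC-14d over Random-14d in oligodendrocytes for each gene list, each small point being a gene with at least 100 counts and the bar the median of its list. The medians of most lists lie within 0.2 of 0, and that of interferon and MHC class I genes is 0.35.

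Genes of the cytoskeleton and the node showed both directions, with 10 of 18 higher, 8 lower and 0 called. Tubb4a, a tubulin of myelinating cells, was at 1675 against 2082 CPM, a log2 ratio of -0.31 (-0.38 to -0.25), and Anln, a septin-associated scaffold, at 564 against 670 CPM (-0.25). Of 17 genes of mature states 12 were lower and 5 higher, with Sgk1 the 1 called, and the median was -0.09. Among abundant genes of these and the other lists, Ptgds was at -0.19, Car2 at -0.19, Apod at -0.18, Stmn1, which binds tubulin, at -0.16 and Fth1 at -0.13. Each of these 5 abundant genes had an interval below 0, and none was called. Of 10 genes of committed and newly formed cells 5 were higher and 5 lower, Bcas1 highest at 0.26 (0.10 to 0.43). Transport genes were 6 higher and 6 lower of 12, with a median of -0.01, and iron and antioxidant genes 11 higher and 6 lower of 17, with a median of 0.07.

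Signalling genes of growth and adhesion were higher for 12 of 17, with 0 called and a median of 0.11. Lpar1, a lysophosphatidic acid receptor of myelinating cells, was at 385 against 318 CPM (0.28), Sema6a, a semaphorin, at 249 against 202 (0.30) and Gpr37, a receptor that restrains myelination, at 445 against 376 (0.24). The intervals of all 3 lay above 0.

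Genes of protein folding in the endoplasmic reticulum were higher for 12 of 15, with 0 called and a median of 0.19. Calr, a chaperone that binds calcium, was at 362 against 253 CPM, a log2 ratio of 0.52 (0.35 to 0.68), Hspa5, the main chaperone of the compartment, at 464 against 356 (0.38), Hsp90b1 at 986 against 784 (0.33) and Pdia3 at 341 against 285 (0.26). Ppp1r15a, a stress-induced phosphatase subunit, was at -0.28 (-0.66 to 0.10). The same chaperones were higher over all other barcodes, Calr at 0.51, Hspa5 at 0.32 and Hsp90b1 at 0.29. For these genes the values in oligodendrocytes therefore lay close to those of the whole suspension.

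Heat shock genes of the cytosol were 5 higher and 8 lower of 13, with a median of -0.09. Hspa1a, an inducible chaperone, was called lower at 23.0 against 45.5 CPM (-0.97, -1.53 to -0.45), and its near-identical copy Hspa1b was at -0.48, so reads of the 2 genes could have been split. Both were lower in the other barcodes too, at -0.71 and -0.66. Hspb1 was called higher at 47.6 against 29.2 CPM (0.70), and Dnajb1 was at 54.4 against 77.5 CPM (-0.51). Immediate early genes, which dissociation can induce, were 5 higher and 10 lower of 15, with 0 called and a median of -0.02. Klf6 was at -0.43 and Klf2 at -0.32, while Fosb was at 0.09.

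Interferon and MHC class I genes had the highest median of the lists of cell function with at least 4 genes tested, 0.35 over 8 genes, of which 7 were higher and 2 called higher (1.29% of all genes tested were), and 13 of the 21 genes of the list were under 100 counts. Bst2, an antiviral membrane protein, was at 60.1 against 30.2 CPM (0.99, 0.54 to 1.46), and 15 of its 115 counts in CFC-14d came from 1 cell. Ifi27l2a was at 109 against 64.6 CPM (0.75), but it was detected in 48 and 42 cells, of which 1 in each library held 27 and 19 UMIs. B2m, the light chain of class I, was at 292 against 244 CPM (0.26) and H2-D1 at 179 against 143 (0.33). Under the wider exclusion of foreign genes the ratios were 0.62 for Bst2 and 0.37 for Ifi27l2a, and with no exclusion UMI allowed the median of the list was 0.08. Bst2 was higher outside the oligodendrocytes, at 183 and 164 CPM over all other barcodes and at 427 and 286 CPM in endothelial cells. Its log2 ratio was 0.15 over all other barcodes, 0.16 in microglia, 0.74 in astrocytes and 0.58 in endothelial cells. That of Ifi27l2a was 0.37, 0.76, -0.35 (-1.01 to 0.30) and 1.11 in the same order. Microglia markers had a median of 0.13 in the same comparison, 7 higher and 3 lower of 10 tested, and their part in these values was not tested.

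Genes that glucocorticoids induce were 7 higher and 2 lower of 9, with Sgk1 the 1 called and a median of 0.22. Klf9 was at 135 against 94.8 CPM (0.51, 0.24 to 0.78) and Mt1, a metallothionein, at 430 against 369 CPM (0.22). Tsc22d3, which also belongs to this response, was at 112 against 113 CPM (-0.01), Nr3c1, the receptor itself, at 0.10, and Fkbp5 had only 13 and 14 counts. The lower genes of the list were Tsc22d3 and Errfi1, the latter at -0.05 (-0.40 to 0.30), both near 0. The counting interval lay above 0 for 3 of the 9 genes and below 0 for 0. Over all genes tested 7.53% lay above 0. Over all other barcodes Klf9 was at 0.34 and Mt1 at 0.31.

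Genes of oligodendrocytes in disease were 8 higher and 6 lower of 14, with Sgk1 the 1 called. The complement gene C4b had 57 and 53 counts, and Serpina3n, a serpin induced in injured glia, 6 and 8. Metabolic lists had small medians. Glycolysis had 9 of 12 higher with a median of 0.09, mitochondrially encoded genes 8 of 11 with 0.10, and nuclear genes of oxidative phosphorylation 13 of 25 with 0.01. Ribosomal proteins were higher for 20 of 25, at a median of 0.08. The counting interval lay above 0 for 6 of the 11 mitochondrially encoded genes and 11 of the 25 ribosomal genes, and below 0 for 0. For nuclear oxidative phosphorylation it lay above 0 for 5 genes and below for 4, and for glycolysis for 1 and 0. Over all genes tested 7.53% lay above 0. The mitochondrial median was 0.03 under the wider exclusion and 0.25 with each cell weighted equally. These 4 metabolic and ribosomal lists held 0 called genes.

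Other called genes were mostly of low level. They were named where, over both libraries summed, their CPM in oligodendrocytes was at least that in the other barcodes, and Dennd6a and Wdr1 met this through CFC-14d alone. Bicd2, an adaptor for dynein transport, was at 73.7 against 34.9 CPM, a log2 ratio of 1.07 (0.66 to 1.51), and was detected in 118 against 68 cells. Dennd6a, an exchange factor for Rab proteins, was at 40.8 against 20.1 CPM (1.01), and Synm, an intermediate filament protein, at 76.8 against 42.6 CPM (0.85), in 123 against 79 cells. Hspa2, Hdac7, Capn2, Rtkn2 and Wdr1 had ratios of 0.88, 0.83, 0.83, 0.81 and 0.78 at 32.4 to 45.5 CPM in CFC-14d. Rtkn2 was at 0.92 and 0.66 CPM in the other barcodes, far below its level in the oligodendrocytes. The other barcodes hold many more UMIs, so this compares levels and does not say where most Rtkn2 counts lay.

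The lower genes named by the same summed level were Mlx, a partner of glucose-sensing factors, at 17.3 against 32.5 CPM (-0.90), Malsu1, a mitochondrial ribosome assembly factor, at 35.0 against 65.6 CPM (-0.90) and Abca8a, a lipid transporter, at 31.9 against 56.5 CPM (-0.82). Mtx1, Rev1, Eif2b2, Terf1, Mrpl39, Brdt, Tmem38b, Scaf1 and Sclt1 had ratios from -0.80 to -0.67, and all lay below 41 CPM in both libraries except Mtx1 at 52.2 CPM in Random-14d. In CFC-14d 7 of these 12 genes were below the other barcodes (Mlx, Malsu1, Sclt1, Mtx1, Mrpl39, Eif2b2 and Tmem38b), so they met the level through Random-14d, where they were higher. No cell held more than 4 UMIs of any of the 12. Malsu1 was detected in 63 and 120 cells. Of the 12, Abca8a and Brdt were concentrated in the oligodendrocytes, at 3.18 and 2.30 CPM in the other barcodes of CFC-14d.

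Genes of interleukin-3 and its receptor, which the series is about, were hardly seen in oligodendrocytes. Il3, which encodes the ligand, had 0 counts in the oligodendrocytes of both libraries and also 0 in all their other barcodes. In the oligodendrocytes Il3ra had 1 and 1 counts, Csf2rb2 1 and 1, and Csf2rb 9 and 4. The upper limits of the exact Poisson intervals at 0 counts were 1.93 and 1.77 CPM. Jak2, a kinase that acts downstream of many cytokine receptors, had 132 and 108 counts (0.42, 0.04 to 0.80).

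Part 2 of the series holds nuclei from frozen dentate gyrus, in which the same rule was applied for comparison: untrained wild-type mice (WT-naive), wild-type mice 14 days after conditioning (WT-CFC), and conditioned mice whose title names a Csf2rb2 knockout while the genotype tag reads Csf2rb3-KO, written here as the library labelled KO-CFC. Nuclei and cells differ in preparation, and the contrast of trained with untrained mice is another one, so values are set side by side only. Oligodendrocyte nuclei by the rule numbered 503 (4.59%) for WT-naive, 838 (6.34%) for WT-CFC and 564 (6.72%) for the library labelled KO-CFC, with medians of 2359, 2179 and 2373.5 UMIs. Neuron markers took 0.981%, 1.05% and 0.972% of their UMIs, against 0.0229% and 0.0254% in the dissociated oligodendrocytes.

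Sgk1 was at 178 CPM in these nuclei of WT-naive, 260 CPM for WT-CFC and 148 CPM for the library labelled KO-CFC, a log2 ratio of WT-CFC over WT-naive of 0.55 (0.39 to 0.71). Among the 282, 412 and 291 nuclei with at most 2 UMIs of the wider list of foreign genes it was at 251, 516 and 249 CPM, a log2 ratio of 1.04 (0.77 to 1.32). That stricter set was chosen after the data were seen. In WT-CFC against WT-naive 5.98% of 9216 genes were 1.5-fold apart either way. Olig1 was at 33.0 and 51.5 CPM in WT-naive and WT-CFC (0.64) and Olig2 at 16.5 and 19.3 CPM (0.22, -0.32 to 0.79). Abca8a, at 47.1 and 90.6 CPM (0.94), had the opposite sign to that in dissociated cells. Synm was at 6.67 and 13.6 CPM (0.99) and Bicd2 at 33.8 and 42.0 CPM (0.31).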

How the data were processed

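The authors deposited unnormalized UMI counts of 78334 genes for each barcode. Cell Ranger 8.0.1, Seurat 5.4.0 and the genome builds mm39 and GRCm39 are named in the submitters' processing notes, with the release of the gene annotation not given in the sources. No coordinates or sequences were used. Groups follow the sample labels. The cells and gene lists were chosen with earlier results of these data known.

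Counts were summed over the oligodendrocytes of each library and scaled to counts per 1000000 (CPM) of their summed UMIs. CPM carry exact Poisson intervals, and log2 ratios were taken after adding 0.5 to both sums, with exact conditional binomial intervals. The ranking of what oligodendrocytes carry and the ratio between libraries used the minimum counts given in the report, and the Klk6 comparison 30 counts. For shares of cells with a UMI, each barcode was also thinned to 1000 UMIs. Astrocytes, microglia and endothelial cells were gated by at least 4 of 8 markers of their own, at most 1 of the 8 oligodendrocyte genes and at most 1 UMI of the exclusion genes of other types.

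Genes named were up to 12 highest and 12 lowest ratios among called genes whose CPM, over both libraries summed, was at least as high in oligodendrocytes as in the other barcodes, the 2 highest and 2 lowest of each of 33 lists, all rule genes, myelin proteins and the study's receptor genes, without unnamed gene models. Some genes that this rule names are left out. Other members of a list are given where they show its spread. No doublet caller was run, and foreign cells were limited only by the exclusion genes. Alternatives changed the rule, the depth and count minimums, the weighting of cells, the scaling (TMM factors from edgeR 4.0.16 in R 4.3.3, with no edgeR test) and the fold. Python 3.11.15, numpy 2.4.6, scipy 1.17.1, pandas 2.3.3 and matplotlib 3.10.9 were used, and scripts were tested on simulated data.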

Additional observations from a re-analysis of the deposited data

How the results depend on the processing

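No paired analysis was possible because each group had 1 library, and for the same reason no replicate could be left out. The log2 ratio of the oligodendrocyte shares lay between -0.44 and -0.30 under 8 alternatives and was -0.12 when 3 rule genes sufficed. None of these loosened the limit on exclusion genes, which left out more barcodes in CFC-14d than in Random-14d. The genes called higher in CFC-14d numbered 72 and the genes called lower in CFC-14d 46. As alternatives, 114 were called higher with 3 rule genes, 47 higher with the wider exclusion of foreign genes, 72 lower with each cell weighted equally, 23 and 20 after thinning (1956 genes tested), 235 and 144 with at least 50 counts, 16 and 8 with at least 200, 5320 and 4810 with no count filter, and 11 and 5 at 2-fold. The number of calls thus depends on the count minimum and the fold. TMM factors gave 63 higher and 55 lower. The number of genes 2-fold apart with Klk6 stayed within 1.5 times of 1309.

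Of 325 list medians under 13 alternatives, 300 lay between the median lower and median upper limit of the list's single genes, and 23 outside. Those limits are not an interval of the median itself. A further 2 changed sign from a reported median of at least 1.5-fold. Sign changes of smaller medians were not counted apart. Among these, the haemoglobin median ranged from -0.67 to 0.21 and that of growth and adhesion signals from -0.06 to 0.18. Of 1833 values of named genes 1645 lay inside the counting interval of the gene's reported ratio and 179 outside. The other 9 changed sign from a called ratio, and sign changes of genes not called were not counted apart. The neutrophil and lymphocyte median was -0.33 with the wider exclusion and -0.35 without the 10% of cells with most UMIs. In the same order Camp was at -1.0 and -0.35, and Ngp at -1.89 and -1.25. Without the cell richest in these markers they were at -1.01 and -1.46. S100a8 was at -0.24 and S100a9 at -0.35 without the 10% of cells. Sclt1 was at 0.33 after thinning, from 15 and 14 counts. Ranges of list medians were 0.10 to 0.25 for cholesterol, 0.08 to 0.52 for interferon, 0.13 to 0.37 for glucocorticoid response, 0.03 to 0.22 for protein folding, -0.38 to 0.30 for immediate early genes, -0.15 to 0.44 for microglia markers and -0.06 to 0.10 for myelin proteins. The rule of at least 7 genes, the cell left out and the comparison by Sgk1 were chosen after the data were seen. Genes under 100 counts, most receptor and precursor genes among them, were left out by the chosen minimum.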

Other observations

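Genes under the minimum of 100 counts were outside the comparison of CFC-14d with Random-14d in oligodendrocytes, and some belong to other stages of the lineage or its matrix. Bcan, a proteoglycan of the brain matrix that precursor cells and astrocytes make, had 8 counts in CFC-14d and 29 in Random-14d. Sema5a, a semaphorin, had 14 and 38, Cnksr3 11 and 30, Cemip2, which degrades hyaluronan, 8 and 25, and Tnr, a matrix glycoprotein of the node, 3 and 13. Each of these 5 had a counting interval below 0, and they were chosen after their values were seen.

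In the nuclei that met the oligodendrocyte rule, several interferon and complement genes were at other levels in the library labelled KO-CFC than in both wild-type libraries. B2m was at 7.46 CPM for WT-naive, 9.76 for WT-CFC and 142 for the library labelled KO-CFC, H2-D1 at 6.28, 8.49 and 383, Bst2 at 1.18, 0.85 and 55.3, and C4b at 1.57, 4.45 and 143. In the dissociated oligodendrocytes of CFC-14d and Random-14d, B2m was at 292 and 244 CPM and C4b at 29.8 and 25.4. That library stood apart in other genes of these nuclei too. S100a8 had 0, 0 and 30 counts and S100a9 0, 1 and 46, Hbb-bs was at 15.3, 8.9 and 45.3 CPM, and the Y-linked genes Ddx3y and Eif2s3y were at 34.2, 38.2 and 6.9 CPM and at 104, 103 and 18.6 CPM. The part of these differences in the interferon values was not tested. All genes of this paragraph were chosen after their values were seen.

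Sgk1 and Klk6 did not go together in 1 direction. In CFC-14d Sgk1 was at 117 CPM in Klk6-positive oligodendrocytes and 192 in the others, a log2 ratio of -0.66 (-1.69 to 0.10), and in Random-14d at 184 and 96.2 CPM, a ratio of 0.96 (0.21 to 1.59), from 12 and 21 counts in the Klk6-positive cells. In Random-14d 31 of the 39 counts of the interferon gene Ifit3 lay in 1 of the Klk6-positive cells.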
